A study of Homo sapiens with 8 samples.

Results

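Amino acid transporters of the cell surface were followed in 2 human hepatocellular carcinoma lines through 10 genes, SLC7A11, SLC3A2, SLC7A5, SLC43A1, SLC7A1, SLC1A4, SLC1A5, SLC38A1, SLC38A2 and SLC6A14. The members were the probe sets to which the platform annotation gives 1 of these symbols and no other, which came to 37 of the 49395 probe sets on the array. The genes make up 10 of 18132 genes with such a probe set. The arrays used formed 3 groups: Huh7.5.1 cells given 10 μM CU27 for 48 h, Huh7.5.1 cells given the solvent DMSO for 48 h, and Hep3B cells given DMSO for 48 h, with 2 arrays each, labelled as biological replicates. Nothing says whether replicates were grown separately, so p-values measure the spread between these arrays. Both lines are established liver cancer lines, grown with 10% serum, and Huh7.5.1 descends from the Huh7 line. CU27 is known here by its code name alone, and the study asked which transcripts it alters in such cells. The 2 columns of CU27-treated Hep3B cells were left out, because each is an exact linear function of the 2 Hep3B DMSO columns, within 1e-06, and so no CU27 effect in Hep3B is given. The relation can also be solved the other way, so it does not show which Hep3B columns were measured. The Hep3B DMSO values were used as deposited, and every difference between the lines rests on them.

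Cells take up amino acids through carriers that differ in their substrates and in what drives them. Some are exchangers, which let an amino acid in only against another that leaves, and others use the sodium gradient to accumulate their substrate. The light chains SLC7A11 and SLC7A5 reach the membrane bound to the heavy chain SLC3A2. Many of these genes are known targets of ATF4, the transcription factor of the response to amino acid shortage, and liver cancer cells often carry more of the glutamine and leucine carriers than adult hepatocytes.

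In Huh7.5.1 cells given CU27, 7 of the 10 transporter genes fell and 0 rose (limma, adjusted p threshold 0.05), and all 10 differences were below 0. Without Huh7.5.1 DMSO replicate 2, 4 of the 10 passed, and 446 of all genes were called lower instead of 1380. The falls were largest for SLC6A14, SLC7A11, SLC38A2 and SLC7A1, each by at least 1 log2 unit. The leucine exchanger SLC7A5 and its heavy chain SLC3A2 did not pass the test, nor did the glutamine exchanger SLC1A5. In DMSO, 9 of the 10 genes were higher in Huh7.5.1 than in Hep3B, and 7 of them also after each array was centred on its median, against 41.0% and 23.2% of all tested genes. All 10 of these differences were above 0. SLC7A11 and SLC3A2 showed the widest differences between the lines.

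These counts stand beside those of the whole array. The transporter genes were chosen with earlier results of these data known, so the shares are set side by side as description only. Of 11383 genes tested, 12.1% were called lower and 12.6% higher with CU27. With arrays centred on their medians, 12.6% were lower and 12.5% higher. By at least 1 log2 unit, 4 of the 10 transporter genes and 3.01% of all genes were called lower, and 2.96% of all genes higher. The median CU27 difference was -0.60 over the 10 genes and 0.02 over all tested genes. The CU27 arrays lay entirely below the DMSO arrays for 9 of the 10 genes and 31.0% of all tested genes, and entirely above for 32.9% of all genes. Fitted as single probe sets, 18 of the 36 transporter probe sets that were bright enough to be tested were called lower and 0 higher, against 11.3% and 10.5% of all probe sets. One probe set of SLC7A1 was too dim to be tested. All values are signals on the log2 scale, differences are in log2 units with their standard error (SE), and n is 2 arrays per group.

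**Figure D1:**
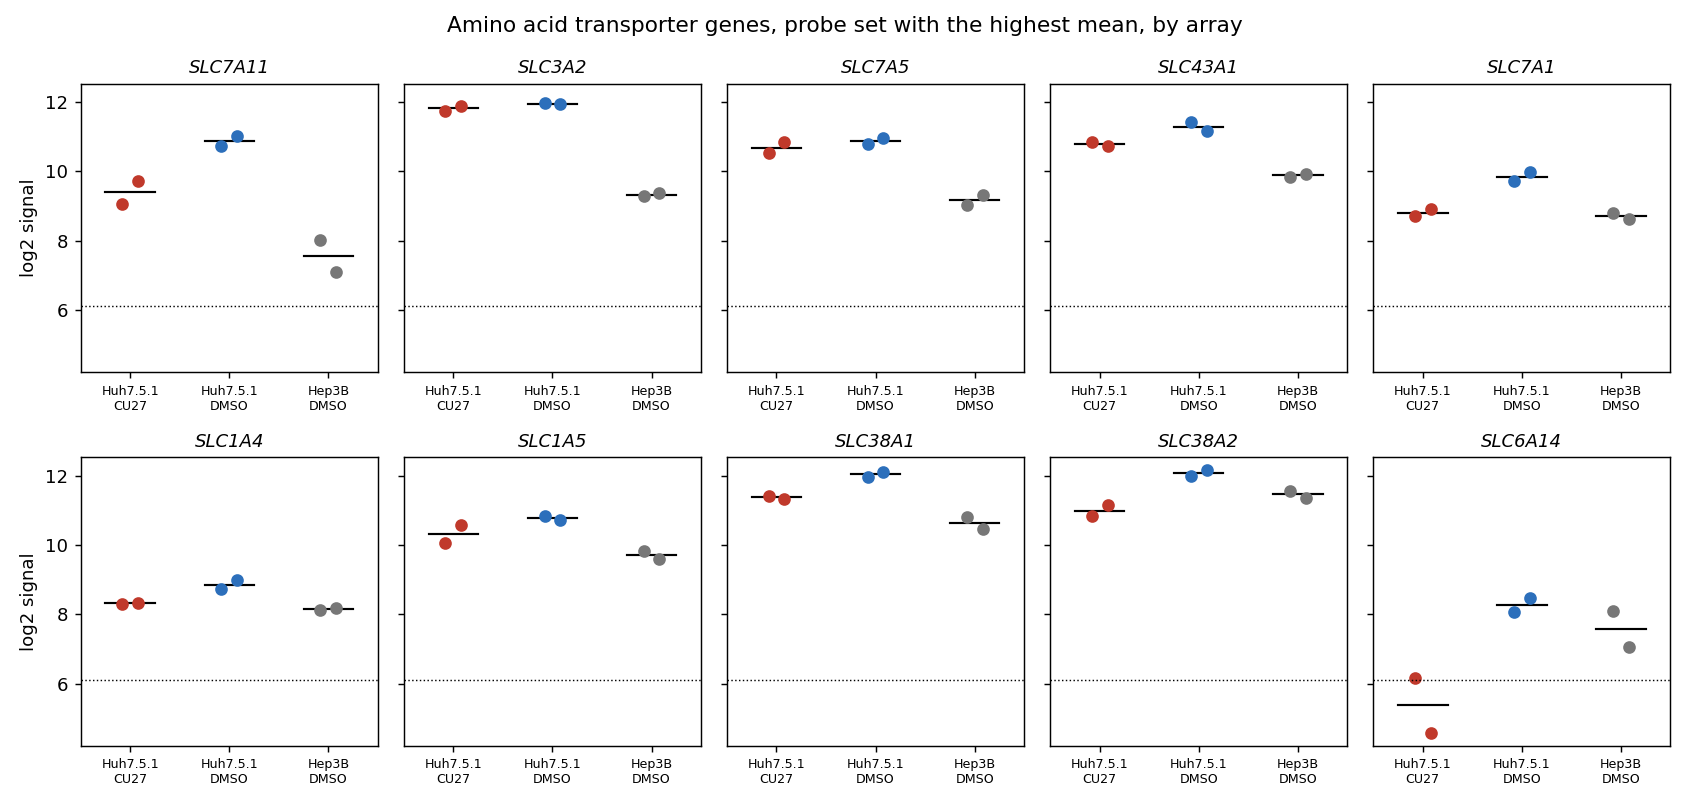
Log2 signal of the 10 transporter genes on each array, by the probe set with the highest mean, with points for arrays, bars for group means and a dotted line at the floor of 6.11. Huh7.5.1 DMSO has the highest group mean in each panel, and the CU27 arrays lie below both Huh7.5.1 DMSO arrays for every gene except SLC7A5.

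The stretches upstream of 4 of the genes are shown because they pair genes that fell with CU27, SLC7A1 and SLC43A1, with the heavy and light chain genes that did not pass, SLC3A2 and SLC7A5. They are the 250 bases before the RefSeq gene start in GRCh38.p14, at chr13:29595689-29595938 on the minus strand, chr11:57515703-57515952 on the minus strand, chr11:62881449-62881698 on the plus strand, and chr16:87869508-87869757 on the minus strand. Capitals mark matches to any of the motifs searched.
SLC7A1: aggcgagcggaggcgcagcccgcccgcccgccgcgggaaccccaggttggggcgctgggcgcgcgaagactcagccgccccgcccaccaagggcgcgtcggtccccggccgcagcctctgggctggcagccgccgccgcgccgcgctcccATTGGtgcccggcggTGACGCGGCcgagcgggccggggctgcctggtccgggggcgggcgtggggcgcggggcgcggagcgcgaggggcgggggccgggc
SLC43A1: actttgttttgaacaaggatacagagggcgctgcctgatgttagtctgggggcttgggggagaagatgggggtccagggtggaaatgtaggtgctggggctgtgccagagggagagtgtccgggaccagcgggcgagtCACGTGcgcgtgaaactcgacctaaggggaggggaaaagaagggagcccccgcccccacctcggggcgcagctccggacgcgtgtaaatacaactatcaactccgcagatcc
SLC3A2: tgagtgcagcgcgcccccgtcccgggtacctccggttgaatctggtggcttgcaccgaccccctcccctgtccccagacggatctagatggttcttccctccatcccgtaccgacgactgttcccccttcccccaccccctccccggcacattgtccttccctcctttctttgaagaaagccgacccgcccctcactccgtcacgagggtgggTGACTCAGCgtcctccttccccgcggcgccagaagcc
SLC7A5: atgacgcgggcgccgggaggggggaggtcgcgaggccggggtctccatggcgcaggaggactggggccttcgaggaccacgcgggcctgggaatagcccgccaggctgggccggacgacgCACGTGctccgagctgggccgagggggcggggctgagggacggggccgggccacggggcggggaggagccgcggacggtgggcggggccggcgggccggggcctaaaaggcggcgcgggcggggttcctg
There were 4 motifs, searched on both strands. The C/EBP-ATF element TGATGNAA, to which ATF4 dimers bind, matched in 0 of the 9 transporter genes with an entry and in 3.14% of 35116 upstream stretches of the same length. The antioxidant element core TGACNNNGC, bound by NRF2, matched upstream of SLC3A2 and SLC7A1, and in 10.9% of all stretches. The E-box CACGTG, bound by MYC and related factors, matched upstream of SLC7A5 and SLC43A1, and in 6.34% of all stretches. The CCAAT box CCAAT matched upstream of SLC7A1 and SLC1A5, and in 32% of all stretches. A match describes these letters only, and SLC7A11 had no entry in the table used. The antioxidant core stood in a gene that fell, SLC7A1, and in 1 that did not pass, SLC3A2, and the E-box likewise in SLC43A1 and SLC7A5. The 4 genes shown are the transporter genes with matches to these motifs, and a link between a motif and CU27 was not tested.

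SLC7A11, also called xCT, imports cystine in exchange for glutamate and so feeds glutathione synthesis. Its signal was 9.07 and 9.71 in Huh7.5.1 CU27, against 10.73 and 11.00 in Huh7.5.1 DMSO. Both CU27 arrays lay below both DMSO arrays, and the spread within CU27 was wider than within DMSO. SLC7A11 fell by 1.48 ± 0.30 with CU27, a 2.79-fold lower level (limma adjusted p = 0.00882). Its second probe set had a difference of -1.45 ± 0.27 and also passed. The remaining probe set, which was dimmer in DMSO, had a difference of -0.31 ± 0.17 and did not pass (limma adjusted p = 0.220). The probe sets of SLC7A11 thus agreed in sign but not in size. Without Huh7.5.1 DMSO replicate 2 the fall was 1.34 in size and no longer passed (limma adjusted p = 0.0698).

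SLC3A2, the 4F2 heavy chain, carries SLC7A11, SLC7A5 and other light chains to the membrane. Its signal was 11.73 and 11.89 in Huh7.5.1 CU27, against 11.95 and 11.93 in Huh7.5.1 DMSO. The arrays did not overlap, but the groups lay close together. The difference was -0.13 ± 0.11 (limma adjusted p = 0.411), with a 95% interval from -0.37 to 0.11. All 7 probe sets of SLC3A2 lay below 0, from -0.31 to -0.13, and 0 of them passed.

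SLC7A5, or LAT1, exchanges leucine and other large neutral amino acids for intracellular glutamine. Its signal was 10.52 and 10.83 in Huh7.5.1 CU27, against 10.80 and 10.95 in Huh7.5.1 DMSO. It was the gene of the 10 whose CU27 and DMSO arrays overlapped. The difference was -0.20 ± 0.15 (limma adjusted p = 0.394), with a 95% interval from -0.55 to 0.15, so a fall as large as that of SLC7A11 lay outside the interval. The other probe set had a difference of 0.04 ± 0.16. SLC7A5 has near-identical pseudogene copies, so its signal may include their transcripts.

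SLC43A1, or LAT3, carries branched-chain amino acids and phenylalanine without exchange and without sodium. Its only probe set read 10.84 and 10.73 in Huh7.5.1 CU27, against 11.41 and 11.16 in Huh7.5.1 DMSO. Both CU27 arrays were lower than both DMSO arrays. SLC43A1 fell by 0.50 ± 0.13 (limma adjusted p = 0.0203). The call was lost without Huh7.5.1 DMSO replicate 1 (-0.37, limma adjusted p = 0.146) and without Huh7.5.1 CU27 replicate 2 (-0.45, limma adjusted p = 0.0857). Of the carriers for large neutral amino acids, the uniporter SLC43A1 passed and the exchanger SLC7A5 did not. The difference between their effects was not tested.

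SLC7A1, or CAT1, is the main entry route of arginine, lysine and ornithine in many dividing cells. Its signal was 8.70 and 8.91 in Huh7.5.1 CU27, against 9.72 and 9.97 in Huh7.5.1 DMSO. The groups stood about 1 log2 unit apart, with less than that between replicates. SLC7A1 fell by 1.04 ± 0.15 (limma adjusted p = 0.00248). Its 4 probe sets ran from -1.11 to -0.68, and 2 of the 3 tested passed. The call held in all 17 alternative settings, with differences from -1.16 to -0.92.

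SLC1A4 and SLC1A5 are sodium-dependent exchangers of small neutral amino acids, known as ASCT1 and ASCT2. SLC1A4, which favours alanine, serine, cysteine and threonine, read 8.30 and 8.33 in Huh7.5.1 CU27, against 8.73 and 8.99 in Huh7.5.1 DMSO. The CU27 arrays were nearly equal to each other and lower than both DMSO arrays. SLC1A4 fell by 0.54 ± 0.15 by this probe set (limma adjusted p = 0.0285). Its 6 probe sets fell into 2 kinds. Those used here and 2 others had differences of -0.54, -0.65 and -0.55, and 2 of these passed, whereas the other 3 had differences of -0.04, 0.03 and 0.10. When its probe sets were averaged, SLC1A4 had a difference of -0.27 and did not pass (limma adjusted p = 0.157). The call was also lost without Huh7.5.1 CU27 replicate 1 (limma adjusted p = 0.0652), Huh7.5.1 CU27 replicate 2 (limma adjusted p = 0.0785), Huh7.5.1 DMSO replicate 2 (limma adjusted p = 0.210) or Hep3B DMSO replicate 3 (limma adjusted p = 0.0504).

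SLC1A5, a main glutamine carrier of cancer cells, read 10.05 and 10.57 in Huh7.5.1 CU27, against 10.83 and 10.72 in Huh7.5.1 DMSO. Both CU27 arrays were lower, but they differed from each other by more than the nearer of them differed from DMSO. The difference was -0.47 ± 0.18 (limma adjusted p = 0.0894), with a 95% interval from -0.87 to -0.06. Its 3 probe sets ran from -0.54 to -0.43, and 1 of them passed on its own. Without Huh7.5.1 CU27 replicate 2 the difference was -0.73 and passed (limma adjusted p = 0.0247), while without CU27 replicate 1 it was -0.20 and did not.

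SLC38A1 and SLC38A2, or SNAT1 and SNAT2, use the sodium gradient to accumulate glutamine, alanine and other neutral amino acids. SLC38A1 read 11.42 and 11.34 in Huh7.5.1 CU27, against 11.97 and 12.11 in Huh7.5.1 DMSO. SLC38A2, which is induced when amino acids run short, read 10.84 and 11.14 in Huh7.5.1 CU27, against 12.00 and 12.15 in Huh7.5.1 DMSO. For both genes the CU27 arrays were clearly separate from the DMSO arrays. SLC38A1 fell by 0.66 ± 0.13 (limma adjusted p = 0.00824). All 5 of its probe sets were lower, from -0.89 to -0.66, and 4 passed. SLC38A2 fell by 1.08 ± 0.13 (limma adjusted p = 0.00126), the smallest adjusted p of the 10 genes. Its 3 probe sets ran from -1.08 to -0.59 and all passed. The call of SLC38A1 was lost without Huh7.5.1 DMSO replicate 2 (limma adjusted p = 0.0747), and that of SLC38A2 held in all 17 alternative settings.

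SLC6A14 takes up neutral and cationic amino acids with sodium and chloride. Its signal was 6.17 and 4.60 in Huh7.5.1 CU27, against 8.08 and 8.49 in Huh7.5.1 DMSO. The CU27 arrays stood far below the DMSO arrays, and they also lay far from each other. SLC6A14 fell by 2.90 ± 0.48 (limma adjusted p = 0.00386). One CU27 array lay under the floor of 6.11, which is the median of all signals and is used as the limit of reliable measurement. With that array raised to the floor, the level was at least 4.42-fold lower with CU27. Its second probe set lay under the floor on both CU27 arrays and was at least 2.19-fold lower. The third lay under the floor there as well and gave a bound of 1.10-fold. For that probe set Huh7.5.1 DMSO replicate 1, at 5.76, was also under the floor and was not raised. The call held in all 17 alternative settings, from -3.69 without CU27 replicate 1 to -2.11 without CU27 replicate 2.

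**Figure D2:**
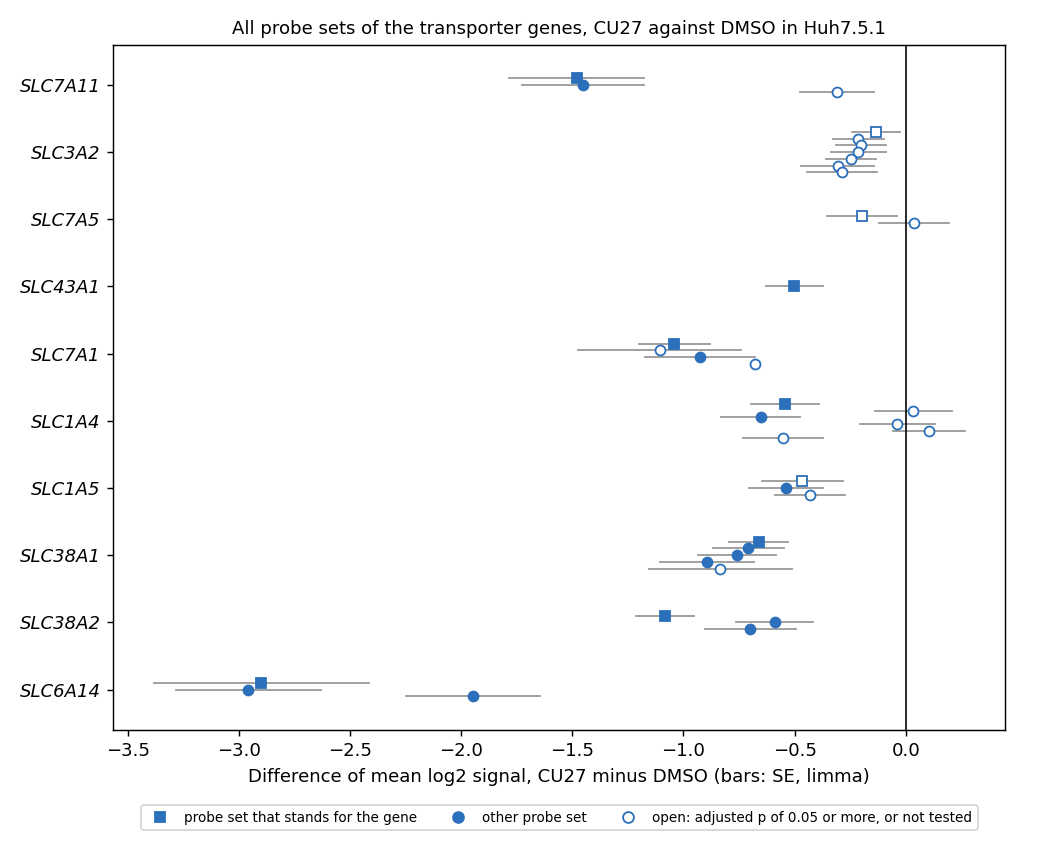
Difference of mean log2 signal between CU27 and DMSO in Huh7.5.1 for each of the 37 probe sets, with SE as bars, filled where the probe set passed limma at an adjusted p of 0.05 and square where it stands for its gene. Of the 37 points, 34 lie below 0, and the 6 points of SLC1A4 split into 3 near 0 and 3 from -0.65 to -0.54.

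**Figure D3:**
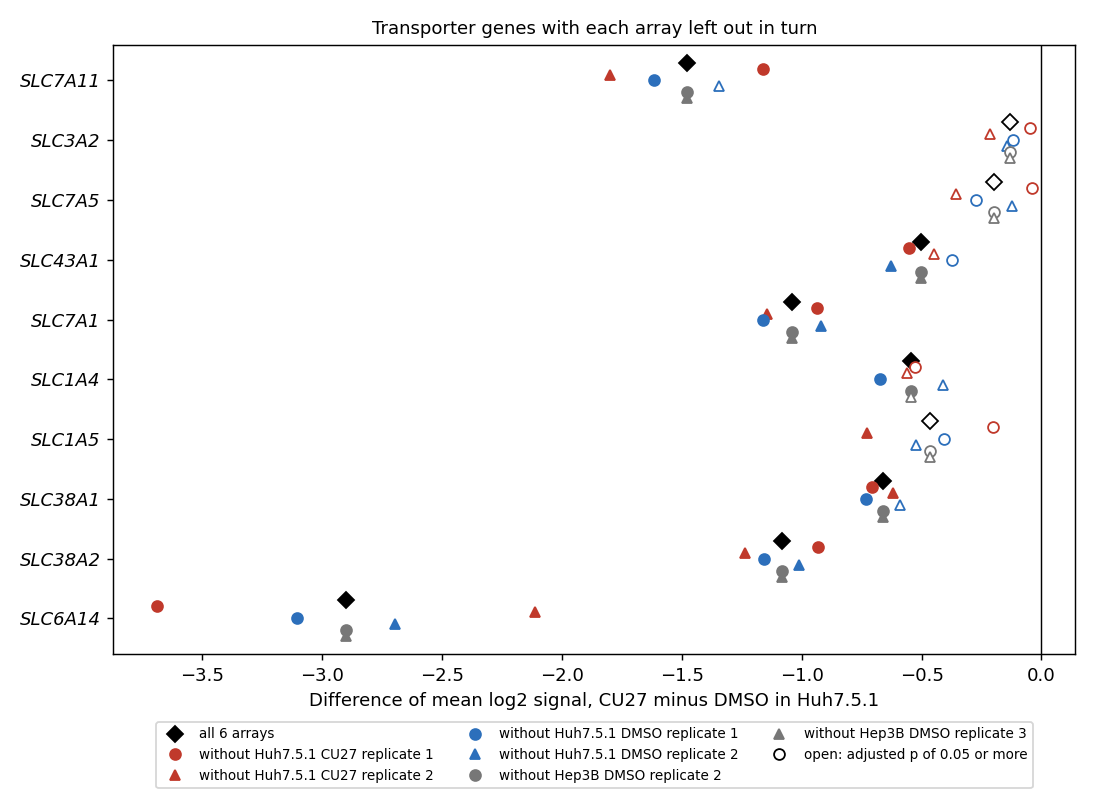
CU27 differences of the 10 genes in log2 units with all 6 arrays and with each array left out, filled where the adjusted p was under 0.05. SLC7A1, SLC38A2 and SLC6A14 stay filled throughout, while SLC7A11, SLC43A1, SLC1A4 and SLC38A1 each lose the call in at least 1 case.

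Since these are bulk cultures, a fall may come from fewer cells with a transcript or from less of it per cell, and these cannot be told apart. Hepatocyte markers were present throughout, with all 9 measured markers at or above the floor in every group. Their summed linear signal ran from 60508 to 77030 in Huh7.5.1 CU27, against 90228 to 94066 in Huh7.5.1 DMSO. With CU27, 4 of the 9 fell, beside 12.1% lower of all tested genes. The part of this shift in the transporter results was not tested. Endothelial and fibroblast markers were mostly under the floor, with PECAM1, VWF, CDH5, COL1A1, COL1A2, COL3A1 and DCN under it in every group. By group mean, PDGFRB lay above it in every group, KDR in Huh7.5.1 DMSO alone and LUM in Hep3B DMSO alone. LUM read 6.41 and 5.89 in Hep3B DMSO, against 2.87 and 2.73 in Huh7.5.1 DMSO. Of the 5 leukocyte markers measured, PTPRC and CD3E, the defining ones, lay under the floor in every group, while LYZ and CD68 lay above it in every group and CD14 in Hep3B alone. Their summed linear signal ran from 2252 to 3315 in Huh7.5.1 CU27, against 3829 to 3926 in Huh7.5.1 DMSO and 437 to 554 in Hep3B DMSO. LYZ, a lysozyme, made up most of it in Huh7.5.1, at 11.44 and 10.57 in Huh7.5.1 CU27, against 11.86 and 11.83 in Huh7.5.1 DMSO, while Hep3B DMSO had 8.09 and 7.36. CD68, a lysosomal membrane protein abundant in macrophages, rose by 2.25 ± 0.20 with CU27 (limma adjusted p = 0.000394). The part of these markers in the transporter results was not tested.

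Between the lines, signals of the whole array were shifted. The median difference over all tested genes was 0.22 in favour of Huh7.5.1, and the median over all probe sets differed by 0.42. How the authors scaled the arrays is not stated. On the deposited scale 4671 genes were higher and 2612 lower in Huh7.5.1, while with arrays centred on their medians 2648 were higher and 4659 lower. Of all tested genes, 41.0% were therefore called higher and 22.9% lower on the deposited scale, against 9 and 0 of the 10 transporter genes. After centring 23.2% were higher and 40.8% lower, against 7 and 0. By at least 1 log2 unit, 18.9% of all genes were higher and 9.05% lower, against 7 and 0. Among single probe sets, 44.7% were higher and 19.4% lower, against 35 and 0 of the 36 tested for the transporter genes. The 2 DMSO arrays of each line did not overlap for 9 of the 10 genes on either scale, with Huh7.5.1 higher, against 52.9% of all genes on the deposited scale and 31.3% after centring, while Hep3B was higher in this way for 31.9% and 52.9%. The ACTB signal at the 3′ end minus that at the 5′ end, a sign of RNA integrity, was 0.94 and 1.06 in Huh7.5.1 DMSO, against 2.28 and 1.60 in Hep3B DMSO. Its part in the differences between the lines was not tested.

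By the probe sets used, SLC7A11 had the widest difference between the lines. The median over probe sets was 3.30 for SLC7A11 and 3.34 for SLC3A2 on the deposited scale, so this order depended on the probe set. The signal of SLC7A11 was 10.73 and 11.00 in Huh7.5.1 DMSO, against 8.02 and 7.11 in Hep3B DMSO. The Hep3B replicates were nearly 1 log2 unit apart, yet both lay far below Huh7.5.1. The difference was 3.30 ± 0.30 (limma adjusted p = 2.04e-05), or 3.08 relative to the shift of all genes, an 8.46-fold higher level. Its 3 probe sets ran from 1.35 to 3.22 relative to the shift.

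SLC3A2 read 11.95 and 11.93 in Huh7.5.1 DMSO, against 9.29 and 9.36 in Hep3B DMSO. The replicates of both lines were tight, and all 7 probe sets showed the difference, from 2.39 to 3.85 relative to the shift. By the probe set used, the difference was 2.61 ± 0.11 (limma adjusted p = 2.25e-07), the smallest of the 7. The light chain SLC7A5 read 10.80 and 10.95 in Huh7.5.1 DMSO, against 9.03 and 9.31 in Hep3B DMSO. It was higher by 1.70 ± 0.15 (limma adjusted p = 2.07e-05), or 1.48 relative to the shift. Both light chains and their heavy chain were thus higher in Huh7.5.1, whereas with CU27 SLC7A11 alone of the 3 passed.

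SLC43A1 read 11.41 and 11.16 in Huh7.5.1 DMSO, against 9.84 and 9.93 in Hep3B DMSO, a difference of 1.18 relative to the shift. SLC38A1 read 11.97 and 12.11 in Huh7.5.1 DMSO, against 10.82 and 10.46 in Hep3B DMSO, also 1.18 relative to the shift. SLC7A1 read 9.72 and 9.97 in Huh7.5.1 DMSO, against 8.79 and 8.64 in Hep3B DMSO, or 0.91 relative to the shift. These 3 genes kept their calls after centring, with limma adjusted p of 8.66e-05, 0.000114 and 0.00291. SLC1A5 read 10.83 and 10.72 in Huh7.5.1 DMSO, against 9.83 and 9.60 in Hep3B DMSO. Its difference was 0.84 relative to the shift, and it also passed after centring (limma adjusted p = 0.00903).

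By the probe sets used, the differences of SLC1A4, SLC38A2 and SLC6A14 were smaller or less certain. SLC1A4 read 8.73 and 8.99 in Huh7.5.1 DMSO, against 8.14 and 8.19 in Hep3B DMSO. SLC38A2 read 12.00 and 12.15 in Huh7.5.1 DMSO, against 11.57 and 11.35 in Hep3B DMSO. Neither overlapped, and both passed on the deposited scale, but after centring their differences were 0.28 and 0.20 with limma adjusted p of 0.144 and 0.213. The 2 other probe sets of SLC38A2 were higher by 1.92 and 1.93 on the deposited scale, so the probe set used gave the smallest difference of the 3. For SLC1A4 too the probe set used gave the smallest difference. All 6 of its probe sets were called higher on the deposited scale, from 0.70 to 1.81. SLC6A14 read 8.08 and 8.49 in Huh7.5.1 DMSO, against 8.09 and 7.07 in Hep3B DMSO. These arrays overlapped, and the difference of 0.70 ± 0.48 did not pass (limma adjusted p = 0.223). The 2 other probe sets of SLC6A14 did not overlap and were higher in Huh7.5.1 by 1.28 ± 0.33 and 1.57 ± 0.30. Both passed (limma adjusted p = 0.00767 and 0.00184), with 1 and 2 Hep3B arrays under the floor. For the latter, Huh7.5.1 DMSO replicate 1 was under the floor as well, at 5.76.

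**Figure D4:**
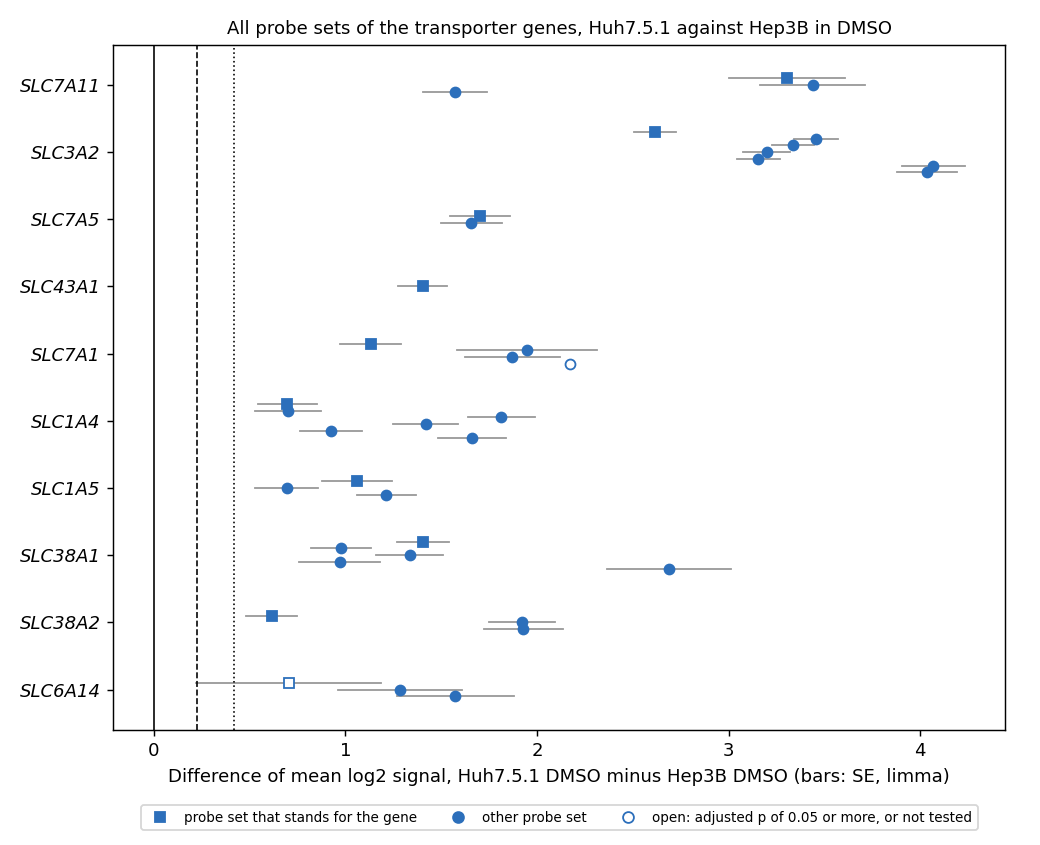
Difference of mean log2 signal between Huh7.5.1 DMSO and Hep3B DMSO for each of the 37 probe sets, with SE as bars and filled where limma's adjusted p was under 0.05. The solid line is at 0, the dashed line at the shift of all tested genes, 0.22, and the dotted line at the difference of array medians, 0.42. All 37 points lie to the right of the dotted line.

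The comparisons share the Huh7.5.1 DMSO arrays, so their values are set side by side only as levels. Huh7.5.1 DMSO had the highest mean for all 10 genes. For 7 genes both Huh7.5.1 CU27 arrays still lay above both Hep3B DMSO arrays on the deposited scale. The share of all genes in this order was not counted, so this number only describes the 10 genes. With Huh7.5.1 DMSO in place of CU27, that share was 52.9% on the deposited scale. For SLC7A1 these arrays overlapped by the probe set used, with means of 8.81 in Huh7.5.1 CU27 and 8.71 in Hep3B DMSO. By its other probe sets both Huh7.5.1 CU27 arrays lay above both Hep3B DMSO arrays. The brighter of these had means of 7.53 and 6.64 in Huh7.5.1 CU27, against 6.69 and 5.69 in Hep3B DMSO. For SLC38A2 and SLC6A14 both Huh7.5.1 CU27 arrays lay below both Hep3B DMSO arrays by the probe sets used. The other probe sets of SLC38A2 had means of 9.70 and 9.17 in Huh7.5.1 CU27, against 8.37 and 7.94 in Hep3B DMSO. By these, both Huh7.5.1 CU27 arrays lay above both Hep3B DMSO arrays. Relative to the shift, the mean of SLC1A4 in Huh7.5.1 CU27 differed from that in Hep3B DMSO by -0.07, and that of SLC3A2 by 2.26. These are values of the probe sets used. The other probe sets of SLC1A4 all had higher means in Huh7.5.1 CU27, such as 8.17 against 7.44 and 7.63 against 6.25 on the deposited scale.

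Of 18 tested genes of a list of 33 other amino acid transporters of the plasma membrane, 4 fell and 1 rose with CU27, with a median of -0.14, beside 12.1% lower and 12.6% higher of all genes. The glutamate carrier SLC1A3 fell by 1.33 ± 0.17 (limma adjusted p = 0.00168) and the glycine carrier SLC6A9 by 0.72 ± 0.16. SLC38A11, a relative of the SNAT carriers, was also called lower, but both CU27 arrays lay under the floor. SLC38A4, a system A carrier typical of hepatocytes, rose by 1.29 ± 0.27 (limma adjusted p = 0.0103), opposite in sign to SLC38A1 and SLC38A2. Of lysosomal amino acid transporters, 2 of 10 rose and 0 fell, the histidine and peptide carrier SLC15A4 by 0.91 ± 0.16 and the proton-coupled carrier SLC36A1 by 0.80 ± 0.20. Of mitochondrial carriers, 3 of 10 tested rose and 1 fell. The serine carrier family member SFXN3 rose by 1.34 ± 0.21, the basic amino acid carrier SLC25A29 by 0.72 ± 0.16 and the glycine carrier SLC25A38 by 0.52 ± 0.13, and the ornithine carrier SLC25A15 fell by 0.77.

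**Figure D5:**
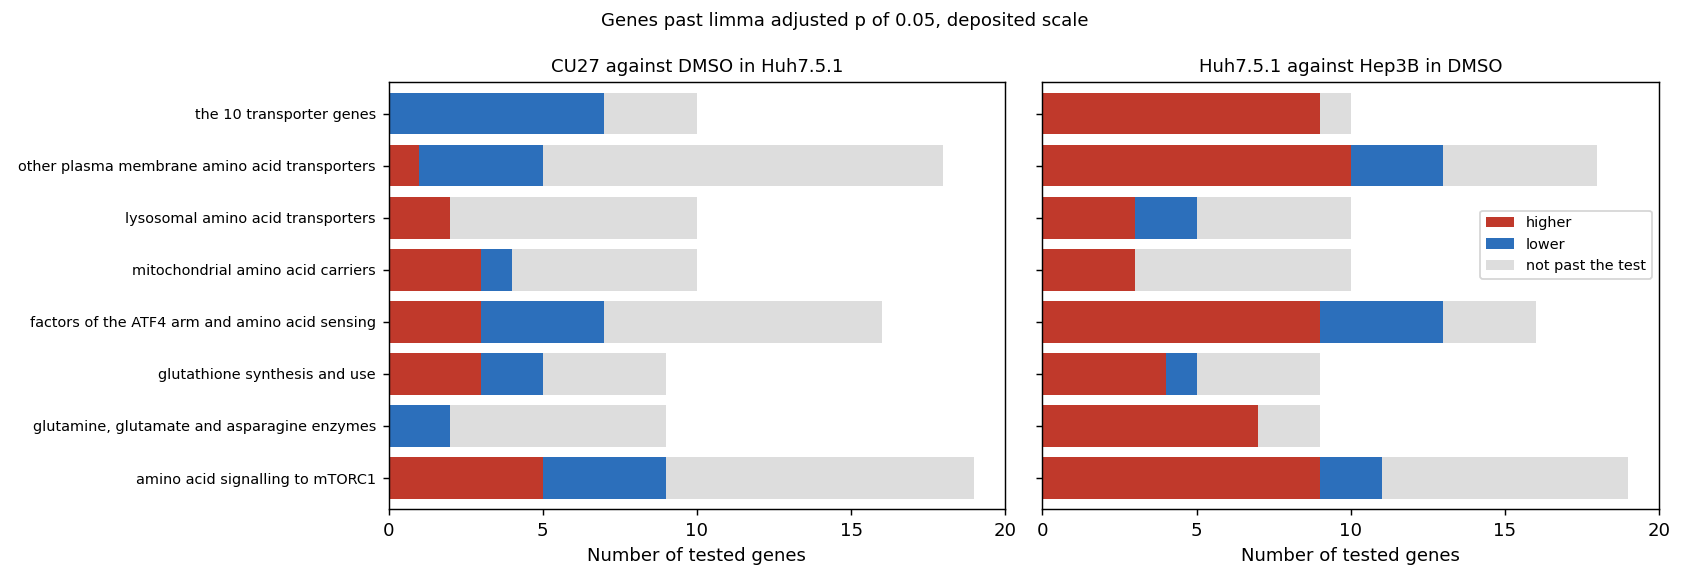
Number of tested genes called higher, called lower or not past limma's adjusted p of 0.05, for the 10 transporter genes and 7 lists of related genes, in both comparisons on the deposited scale. With CU27 the 10 transporter genes have 7 called lower and 0 higher, and lysosomal transporters have 2 higher and 0 lower. Of all tested genes, 12.1% were called lower and 12.6% higher with CU27.

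Genes that act on or with the transporters moved both ways with CU27, beside 12.1% lower and 12.6% higher of all tested genes. Among 16 factors of the ATF4 arm and amino acid sensing, 4 fell and 3 rose, with a median of -0.01. The transcript of ATF4 itself had a difference of 0.03 ± 0.09 and that of NFE2L2, which encodes NRF2, of -0.01 ± 0.10. Neither passed (limma adjusted p = 0.864 and 0.960), and the arrays do not measure the proteins. The kinases EIF2AK1 and EIF2AK3, which phosphorylate eIF2α upstream of ATF4, rose by 0.88 ± 0.09 and 1.02 ± 0.15. The leucine sensor SESN2 fell by 1.18 ± 0.22 and CEBPG by 1.07 ± 0.14. Of 9 enzymes of glutamine, glutamate and asparagine metabolism, 2 fell and 0 rose. These were GOT1, the cytosolic aspartate aminotransferase, at -0.61 ± 0.17, and PSAT1, a serine pathway aminotransferase, at -0.40 ± 0.11. ASNS, asparagine synthetase, had a difference of -0.23 ± 0.14 and did not pass.

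Glutathione genes, which use the cysteine that SLC7A11 brings in, also split. Of 9 tested, SLC7A11 included, 3 rose and 2 fell, beside 12.6% higher and 12.1% lower of all tested genes. GCLC, the catalytic subunit of the rate-limiting enzyme, rose by 0.81 ± 0.14, and the glutathione reductase GSR by 0.56 ± 0.14. CHAC1, which breaks glutathione down, fell by 0.86 ± 0.17, beside SLC7A11. Among 19 genes of amino acid signalling to mTORC1, 5 rose and 4 fell, beside the same shares of all tested genes. The Rag GTPase RRAGC rose by 1.33 ± 0.14, and NPRL3, a subunit of the GATOR1 complex that restrains mTORC1, fell by 0.89 ± 0.15.

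Between the lines in DMSO, the same lists differed as follows. Of all tested genes, 41.0% were higher and 22.9% lower in Huh7.5.1 on the deposited scale, and 23.2% and 40.8% after centring. Of the other plasma membrane transporters, 10 were higher and 3 lower in Huh7.5.1, or 8 and 5 of 17 after centring, with SLC6A9 higher by 2.08 and SLC38A6 by 1.56 relative to the shift. Of the lysosomal transporters, 3 were higher and 2 lower, or 0 and 4 after centring, with SLC15A4 lower at -1.84. Mitochondrial carriers had 3 higher and 0 lower, or 1 and 4 of 9 after centring. In the lysosomal list the 3 higher calls were lost on centring and SLC15A4 and SLC15A3 stayed lower, and among mitochondrial carriers SLC25A38 stayed higher. Of the ATF4 factors, 9 were higher and 4 lower, or 6 and 5 after centring, among them ATF3, a factor induced downstream of ATF4, at 2.75 and NFE2L2 at 1.21 relative to the shift. The ATF4 gene was higher by 0.31 ± 0.09 on the deposited scale (limma adjusted p = 0.0173). Relative to the shift this was 0.08, and it did not pass after centring (limma adjusted p = 0.335). Among glutamine and asparagine enzymes, 7 of 9 were higher and 0 lower, or 4 and 1 after centring, with ornithine aminotransferase, OAT, at 2.02 and ASNS at 1.47. Of the glutathione genes, 4 were higher and 1 lower, or 3 and 2 after centring, with GCLM, the regulatory subunit beside GCLC, at 3.10 relative to the shift. Of the mTORC1 genes, 9 were higher and 2 lower, or 6 and 7 after centring, with SESN2 at 2.19 and RRAGA at -1.63.

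Likeness of pattern was measured as Pearson's r of log2 signal over the 6 arrays, among 4241 genes whose group means spanned at least 1 log2 unit. For SLC7A11 the closest genes were PNPT1 (r = 0.996), METTL6 (r = 0.996) and LIG4 (r = 0.995). For SLC3A2 they were BATF3 (r = 0.9996), SLC35G2 (r = 0.9995) and NKIRAS1 (r = 0.9995), and for SLC7A5 they were USP14 (r = 0.999), PSMD14 (r = 0.997) and UCP2 (r = 0.997). The 6 arrays form 3 groups, so these values mainly describe the order and spacing of the group means.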

How the data were processed

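Biotin-labelled cRNA was made from total RNA with the GeneChip 3′IVT Express kit and measured on 1 Affymetrix array per sample, per the labels' protocols. The values are signals per probe set, deposited by the authors and taken to be on the log2 scale from their range. MAS5 is named, without a version, in the submitters' processing notes, and no source says how arrays were scaled. Precision is limited by the number of arrays. Of 49395 probe sets, 102 controls were left out, and 44988 had 1 gene symbol, 1832 several and 2473 none. For each of 18132 genes the brightest probe set over the 6 arrays was used. Genes were tested when a group mean reached the floor, log2 6.11, the 50th percentile of all values, which left 11383, all 10 transporter genes among them.

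The fit used limma 3.58.1 (lmFit, contrasts, eBayes with trend; R 4.3.3) over 6 arrays, with 3 residual degrees of freedom, two-sided tests and Benjamini-Hochberg adjustment over all tested genes. Exact permutation of 2 against 2 arrays gives no p under 0.333 and was not used. The procedure was tried on simulated data in which the spreads were shuffled between genes, so that trial does not check the intensity trend. The transporter genes and the 11 lists were chosen with earlier results of these data known, and of 139 listed genes 7 had no probe set of a single symbol. All 10 transporter genes are described. From each list up to 4 genes per comparison past the test, by smallest p, could be named, and ATF4, NFE2L2 and ASNS always. Likeness was measured for SLC7A11, SLC3A2 and SLC7A5, with 3 genes each. Upstream sequences are from RefSeq, GRCh38.p14, with 9 of 10 genes matched. At 1086 probe sets the Hep3B DMSO columns held equal values, 0 of them of transporter genes.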

Additional observations from a re-analysis of the deposited data

How the results depend on the processing

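The number of transporter genes called lower with CU27 was 7, and ran from 4 to 7 when each array was left out in turn, with 4 without Huh7.5.1 DMSO replicate 2. It was 6 with the mean of all probe sets, 8 without _x_at and _s_at probe sets and 7 in the other settings, which were median centring, quantile normalization, no floor, a floor at the 25th percentile, single probe sets, values raised to the floor, no intensity trend and only the 4 arrays compared. The number called higher between the lines was 9, from 7 after median centring to 10 with the mean of all probe sets, and 9 with each array left out. In these settings 0 genes were called the opposite way in either comparison. Of 330 gene and setting combinations, 316 kept their call, 11 lost it, 3 gained it and 0 changed sign. The 3 gained were SLC1A5 with CU27 without _x_at and _s_at probe sets (-0.54) and without Huh7.5.1 CU27 replicate 2, and SLC6A14 between the lines with the mean of all probe sets (1.19). With 1 array left out a group has 1 array, which is assumed to vary like the other groups. With the replicate number as a block within Huh7.5.1, 7 transporter genes were called lower and 0 higher. The labels do not say that a number marks a shared batch or day, and the deviations of same-numbered arrays correlated with r = 0.27 over probe sets. No paired analysis was possible between the lines because their DMSO groups share only 1 number. Over the alternatives, the limma adjusted p with CU27 ran from 0.00392 to 0.0698 for SLC7A11, 0.00632 to 0.0747 for SLC38A1, 0.0120 to 0.146 for SLC43A1, 0.0232 to 0.210 for SLC1A4, 0.0247 to 0.366 for SLC1A5, 0.163 to 0.791 for SLC3A2 and 0.193 to 0.883 for SLC7A5. Over all genes, 1429 were called higher and 1380 lower with CU27, against 454 and 446 without Huh7.5.1 DMSO replicate 2, 793 and 846 without Huh7.5.1 DMSO replicate 1, and 677 and 840 without Huh7.5.1 CU27 replicate 2. Between the lines 4671 were higher and 2612 lower, against 2648 and 4659 after median centring, 3115 and 4011 after quantile normalization, and 7517 and 3124 with no floor. The cause of the lost calls was not tested.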
